A study of Mus musculus with 15 samples.

Results

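In MH-S cells, a line of mouse alveolar macrophages transformed with SV40, the gene of this set that differed most between groups was Gpnmb, which codes for a membrane glycoprotein abundant in lipid-laden macrophages. Its mean level was 3.26 times the untreated level after calcium phosphate (CaP) microrods and 3.52 times after silica (SiO2) microrods, and it was 0.497 times that level after LPS with IFN-γ. Hilpda, a small droplet protein that inhibits lipolysis, had its lowest mean in untreated cells and its highest in the cells with CaP microrods. Plin2, the main droplet coat protein of macrophages, was highest with SiO2 microrods. Of the differences from untreated cells, only those of Gpnmb after CaP microrods and after LPS with IFN-γ passed the test used here, and both were lost under some of the other settings described with them.

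The set held 10 genes of lipid droplets and fatty acid use, namely Plin2, Plin3, Lpl, Acsl1, Cpt1a, Pnpla2, Mgll, Hilpda, G0s2 and Gpnmb. They were taken from the table of raw counts as the rows whose Ensembl identifiers map to these symbols, 10 of 78317 identifiers, and all 10 were found. Bulk RNA-seq had been done on 5 groups of 3 wells each, all lysed after 24 h. M0 cells were left untreated, M1 cells received LPS (1 µg/mL) together with IFN-γ (20 ng/mL), and M2 cells IL-4 (20 ng/mL). The other groups, CaP_rods and SiO2_rods, received 0.1 mg/mL of rod-shaped microparticles made of calcium phosphate or silica nanoparticles, held together by alginate and coated with layers of protamine and carboxymethyl chitosan. The rods differ in the mineral core and in density, so that the same mass per volume holds different numbers of rods, and core and rod number cannot be told apart. Every well came from the same cell passage and each rod well received its own particle batch. The p-values thus measure the spread between wells of one culture, which in the rod groups also holds that between particle batches. Bulk RNA does not tell fewer expressing cells from less RNA per cell.

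Lipid droplets are stores of triglyceride and cholesteryl ester wrapped in a phospholipid monolayer and coated by perilipins. Macrophages take up fatty acids set free by lipoprotein lipase, activate them to acyl-CoA, store them or pass them through carnitine palmitoyltransferase into mitochondria for beta-oxidation, and break stored lipid down again by a chain of lipases that starts with the product of Pnpla2. Alveolar macrophages handle much lipid because they clear surfactant, and macrophages rich in droplets are known as foam cells.

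The promoters of Gpnmb, Plin2 and Hilpda are shown because Gpnmb and Hilpda lay farthest above M0 in both rod groups and Plin2 came next in SiO2_rods. Each window runs from 250 bases before to 30 bases after the RefSeq start, on GRCm38.p6, and is written on the strand of the gene, which is the same in RefSeq and GENCODE M21. The Gpnmb window lies at chr6:49036268-49036547 on the plus strand, its start 97 bases before that of the principal GENCODE transcript and 28 bases before that of the first one, that of Plin2 at chr4:86670030-86670309 on the minus strand, and that of Hilpda at chr6:29272238-29272517 on the plus strand. Capitals mark matches, on either strand, to the AP-1 site TGACTCA, the hypoxia response core ACGTG or GCGTG, the E-box CACGTG, which contains ACGTG, and AGGTCA, the half-site of nuclear receptors such as the PPARs.
Gpnmb: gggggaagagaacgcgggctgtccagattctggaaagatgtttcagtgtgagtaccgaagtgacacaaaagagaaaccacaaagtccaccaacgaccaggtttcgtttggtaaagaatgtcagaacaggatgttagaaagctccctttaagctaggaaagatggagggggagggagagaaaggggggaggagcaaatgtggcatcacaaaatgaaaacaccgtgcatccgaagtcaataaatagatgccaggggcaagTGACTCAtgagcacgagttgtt
Plin2: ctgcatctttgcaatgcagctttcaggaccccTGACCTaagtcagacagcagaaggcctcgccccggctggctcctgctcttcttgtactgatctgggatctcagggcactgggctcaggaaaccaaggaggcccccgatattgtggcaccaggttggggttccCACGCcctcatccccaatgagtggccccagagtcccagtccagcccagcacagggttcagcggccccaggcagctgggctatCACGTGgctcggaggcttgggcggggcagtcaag
Hilpda: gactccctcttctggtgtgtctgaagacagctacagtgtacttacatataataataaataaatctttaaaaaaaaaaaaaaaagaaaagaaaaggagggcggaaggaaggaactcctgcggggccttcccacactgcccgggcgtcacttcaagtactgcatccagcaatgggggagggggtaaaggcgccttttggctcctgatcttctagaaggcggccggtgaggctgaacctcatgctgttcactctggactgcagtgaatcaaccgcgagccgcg
Gpnmb held 1 AP-1 match, beginning at base 9 counted from the RefSeq start, ahead of every GENCODE transcript of the gene, and none of the other motifs. AP-1 matches stand in 4.94% of 32541 distinct promoter windows of this length. In Plin2 an E-box began at position -4, where it also counts as hypoxia core on both strands, a further hypoxia core began at -86 and an AGGTCA half-site at -218. The share of windows with an E-box was 6.81%, with a hypoxia core 42% and with a half-site 15.4%. No match to these letters lay in the Hilpda window. A direct repeat of the half-site spaced by 1 base, the classical PPAR element, was in none of the 9 members with an entry and in 0.0369% of all windows. Lpl had no entry.

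The libraries held between 8459643 and 68750050 counts, so that 1 count was worth 0.0143 to 0.132 CPM. CPM are counts relative to the library total, here scaled by the trimmed mean of M-values (TMM) over all 15 libraries. The third M0, the second M2 and the second SiO2_rods library, the shallowest of their groups, had the lowest values on the second principal component (-42.7, -43.9 and -21.7), and results that change without them are given both ways. As checks of the labels, Il1b was at 359.0 to 449.7 CPM in M1 and at most 2.799 CPM elsewhere, and Arg1 was at 1382 to 1724 CPM in M2 and at most 23.5 CPM elsewhere. Of 10 macrophage markers, 8 averaged at least 1 CPM, Cd68 ranging from 677 to 1322 CPM, while Mertk did not exceed 0.501 CPM. Their summed level was 1438 to 2209 CPM in M2 and 2686 to 3662 CPM in the other groups, and its part in the M2 values was not tested. The 5 alveolar macrophage markers Pparg, Siglecf, Car4, Chil3 and Fabp4 summed to at most 2.12 CPM in any library, so the genes that define the labelled cell type were at or near 0. Of the adipocyte markers, Adipoq, Lep, Cidea and Plin1 stayed below 0.1 CPM in every library, and Retn was at most 7.90 CPM outside M1, where the 5 markers summed to 23.4 to 29.4 CPM. Markers of alveolar epithelium, fibroblasts and lymphocytes summed to at most 0.430 CPM, and those of neutrophils to at most 1.504 CPM, with Epcam and S100a9 at 0 in every library.

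Per transcript length, the members spanned a wide range. Lpl, the secreted lipase that frees fatty acids from lipoproteins, was the most abundant, with group means from 114.3 CPM per kb in M1 to 179.6 CPM per kb in CaP_rods. Plin2 followed at 63.0 to 126 CPM per kb and Hilpda at 36.9 to 89.1 CPM per kb. Gpnmb, at 11.9 CPM per kb in M1 and 84.6 in SiO2_rods, passed from below Plin3 to the neighbourhood of Hilpda. Plin3 (16.01 to 26.9 CPM per kb) and Pnpla2 (10.0 to 12.3 CPM per kb) were intermediate, and Acsl1 (1.88 to 3.58) and Cpt1a (0.920 to 2.12) were low on the same per-kb scale. Mgll, which codes for monoglyceride lipase, had 0 to 7 counts per library, with a count in 8 of 15 libraries. G0s2, an inhibitor of the Pnpla2 lipase, had no count in any library, which allows a level of at most 0.0429 CPM in the deepest library and 0.395 CPM in the one with the highest floor, taking 3 counts as the limit. Mgll and G0s2 did not pass the filter on low counts, so 8 members were tested.

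**Figure D1:**
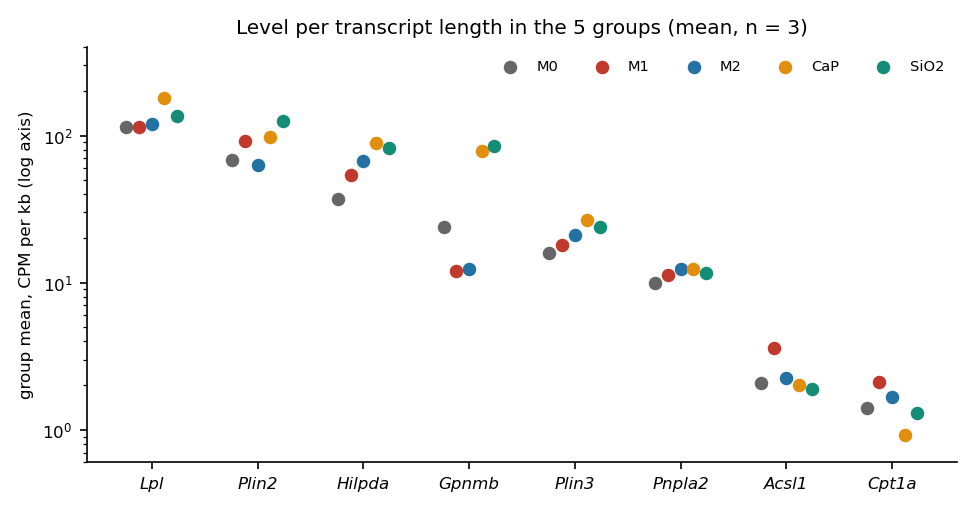
Group mean of each detected member in CPM per kb of its principal transcript (log axis), with 1 point for each of the 5 groups (n = 3 libraries). Lpl, Plin2 and Hilpda lie highest, Acsl1 and Cpt1a lowest, and the 5 points of Gpnmb are spread the farthest, from 11.9 to 84.6 CPM per kb.

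Among the droplet coat genes, Plin2 codes for the perilipin that sits on droplets permanently and is lost when unbound. Its levels in M0 were 99.4, 145.7 and 143.3 CPM. They were 157.6, 174.6 and 186.7 CPM in M1, and 140.4, 121.3 and 94.95 CPM in M2. With the rods they were 159.1, 192.2 and 198.6 CPM (CaP_rods) and 232.8, 248.4 and 234.7 CPM (SiO2_rods). All SiO2_rods libraries lay above all 12 others, and the CaP_rods and M1 libraries lay above all M0 libraries. The SiO2_rods mean was 1.85 times that of M0, a log2 fold change of 0.88 ± 0.17 (SE, n = 3 per group), which did not pass in edgeR's quasi-likelihood test with Benjamini-Hochberg adjustment over all genes (adjusted p = 0.151), though it did in DESeq2 (adjusted p = 0.00674). The level in CaP_rods differed from M0 by 0.50 ± 0.17 on the log2 scale (edgeR adjusted p = 0.188). Set against M2, the SiO2_rods level was higher by 1.01 ± 0.18 on the log2 scale and passed (edgeR adjusted p = 0.00509), a call lost only when the model was fitted to those 6 libraries alone (adjusted p = 0.0514) among 14 alternatives. In M1 against M2 the difference was 0.54 ± 0.18 (edgeR adjusted p = 0.0575, DESeq2 0.0384).

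Plin3, the perilipin that moves from the cytosol onto nascent droplets, had a range of group means of 0.77 on the log2 scale, against 1.02 for Plin2. M0 libraries were at 51.5, 77.0 and 46.6 CPM, CaP_rods libraries at 81.9, 99.7 and 112 CPM and SiO2_rods libraries at 84.5, 90.6 and 86.7 CPM, so both rod groups lay above M0 without overlap. M1 (55.2 to 74.2 CPM) and M2 (61.7 to 89.4 CPM) overlapped M0. The log2 fold change was 0.74 ± 0.21 with CaP_rods and 0.58 ± 0.21 with SiO2_rods, and neither passed in edgeR (adjusted p = 0.135 and 0.458).

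Hilpda, induced by hypoxia and fatty acids and known to hold back triglyceride breakdown, was at 25.7, 46.6 and 36.5 CPM in M0. M1 libraries stood at 39.7, 59.9 and 60.4 CPM and M2 libraries at 75.2, 68.8 and 52.3 CPM. In CaP_rods they were at 92.8, 69.7 and 100.0 CPM, and in SiO2_rods at 82.3, 76.9 and 82.0 CPM. M2 and both rod groups lay wholly above M0, and M1 overlapped it. Against M0, the log2 fold change was 1.28 ± 0.23 with CaP_rods, just outside the threshold in edgeR (adjusted p = 0.0502) and inside it in DESeq2 (adjusted p = 0.000392). With all 15 libraries in the edgeR model the adjusted p was 0.0300, and over 14 alternatives it ranged from 0.000392 to 0.262. For SiO2_rods the log2 fold change was 1.15 ± 0.23 (edgeR adjusted p = 0.151, DESeq2 0.00520), and for M2 it was 0.85 ± 0.24 (edgeR 0.0649, DESeq2 0.0229).

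Gpnmb, a target of lysosomal stress signalling and a marker of foam cells and lipid-associated macrophages, had the widest range of group means, 2.85 on the log2 CPM scale, against 1.29 for Hilpda, the next. Its levels in M0 were 64.6, 99.6 and 102.6 CPM. In M1 they were 32.8, 46.8 and 53.1 CPM, and in M2 56.8, 33.2 and 47.6 CPM, so every polarised library lay below every M0 library. In CaP_rods the levels were 173.6, 330.2 and 365.9 CPM, and in SiO2_rods 311, 334.0 and 294 CPM. All 6 rod libraries lay above the highest of the other 9, and the first CaP_rods library stood well under the other two. Gpnmb rose with CaP_rods by 1.71 ± 0.28 on the log2 scale (edgeR adjusted p = 0.0423, DESeq2 1.64e-05). That call was lost in edgeR without the second or the third CaP_rods library (adjusted p = 0.121 and 0.205), without the first or the third M0 library (0.186 and 0.105), without the 3 libraries that stand apart (0.131) and with the older form of the quasi-likelihood fit (0.0537), while the log2 fold change stayed between 1.49 and 1.95. The log2 difference of SiO2_rods from M0 was 1.82 ± 0.28. It did not pass in the 9-library edgeR model (adjusted p = 0.0723) and did so in the 15-library one (0.0209) and in DESeq2 (5.06e-06).

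After LPS and IFN-γ, Gpnmb fell by 1.01 on the log2 scale (SE 0.29, edgeR adjusted p = 0.0334). Leaving out the second or the third M0 library or any M1 library ended the call (adjusted p = 0.0512 to 0.113), as did leaving out the 3 libraries that stand apart (0.0543). In M2 the log2 fold change was -0.95 ± 0.29, outside the threshold in edgeR (adjusted p = 0.0908) and inside it in DESeq2 (0.0391). The log2 difference of M1 from M2 was -0.06 ± 0.29 (edgeR adjusted p = 0.909). Between either rod group and either polarised group Gpnmb differed by 2.65 to 2.83 on the log2 scale, with edgeR adjusted p between 2.96e-05 and 8.93e-05, and these 4 calls held in each of 14 alternatives.

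**Figure D2:**
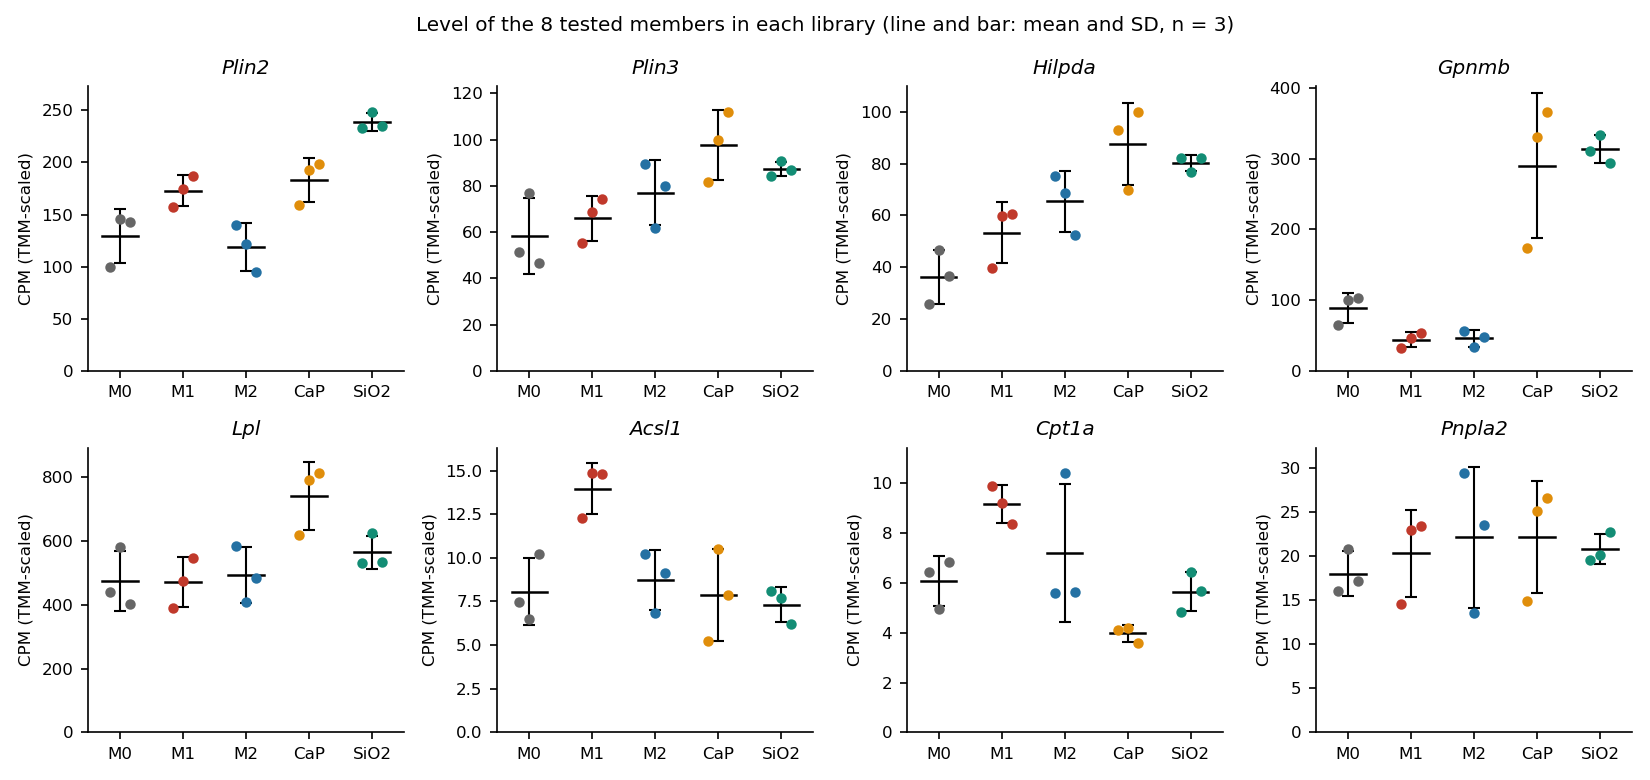
Level of each tested member in TMM-scaled CPM (linear axis from 0) in the 15 libraries, grouped as M0, M1, M2, CaP and SiO2 microrods; points are libraries, the horizontal line is the mean and the bar the SD (n = 3). The rod libraries stand above all others for Gpnmb, the SiO2 libraries for Plin2, and the CaP libraries lie lowest for Cpt1a, whereas the groups overlap for Pnpla2.

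Of the lipases and their control genes, Lpl stood at 438, 580.3 and 402 CPM in M0, with M1 (390.4 to 546 CPM) and M2 (409.8 to 584 CPM) in the same range. CaP_rods libraries were at 617, 789.7 and 811 CPM and SiO2_rods libraries at 531, 624 and 535 CPM. The CaP_rods libraries lay above those of M0, M1 and M2, and overlapped SiO2_rods. The log2 fold change of CaP_rods from M0 was 0.64 ± 0.18 (edgeR adjusted p = 0.134), and Lpl passed against M1 only (0.65 ± 0.19, edgeR adjusted p = 0.0384). That call ended without the second or the third CaP_rods library or the first or second M1 library (0.0985 to 0.159). Pnpla2, the lipase that takes the first fatty acid off triglyceride, had group means between 18.0 and 22.2 CPM, with libraries from 13.6 to 29.4 CPM. Its range of group means was 0.26 on the log2 scale, the narrowest of the 8, its groups overlapped in every pair, and it was called in none of the 10 comparisons, nor in the 14 alternatives of each of the 6 that do not pair a rod group with M1 or M2.

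Acsl1, a long-chain acyl-CoA synthetase, was highest in M1, at 12.3, 14.8 and 14.8 CPM, above every library of the other groups, which ranged from 5.23 to 10.5 CPM. Its log2 fold change from M0 was 0.82 ± 0.26 (edgeR adjusted p = 0.0540, DESeq2 0.0433, and 0.0295 in edgeR without the 3 libraries that stand apart). Acsl1 had log2 differences from M1 of -0.85 ± 0.26 with CaP_rods and -0.94 ± 0.26 with SiO2_rods (edgeR adjusted p = 0.0434 and 0.0344), and over the alternatives these calls were lost in 9 and 8 of 14, with adjusted p up to 0.131 and 0.152. Neither rod group differed from M0 by more than its error (-0.04 ± 0.28 and -0.12 ± 0.29).

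Cpt1a, which hands long-chain fatty acids to the mitochondrion and sets the rate of their oxidation, was at 6.45, 4.94 and 6.83 CPM in M0. It stood at 9.89, 9.23 and 8.36 CPM in M1 and at 5.595, 10.4 and 5.62 CPM in M2. The SiO2_rods libraries held 4.85, 6.43 and 5.67 CPM and the CaP_rods libraries 4.12, 4.21 and 3.59 CPM. CaP_rods libraries were below all 12 others, and only the second M2 library, one of the 3 that stand apart, exceeded those of M1. Cpt1a fell by 1.21 on the log2 scale in CaP_rods against M1 (SE 0.24, edgeR adjusted p = 0.00433), a call kept in each of 14 alternatives with adjusted p up to 0.0267. Against M0 its log2 difference in CaP_rods was -0.61 ± 0.21 (edgeR adjusted p = 0.187). For M1 against M0 it was 0.60 ± 0.24 (edgeR adjusted p = 0.127, and 0.0490 without the 3 libraries). For M1 against M2 it was 0.41 ± 0.24 (edgeR adjusted p = 0.269), and 0.70 without the 3 libraries (edgeR adjusted p = 0.0283).

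The counts of members called stand here beside the share of all tested genes that met the same criterion. In M1 against M0, 5 of the 8 tested members had an unadjusted p below 0.05 (4609 of 16654 genes tested) and DESeq2 called 2 (2611 genes). With edgeR 1 of the 8 was called (Gpnmb), beside 14.1% of the 16654 genes. None was called in M2 against M0, beside 4.13% of genes, with 2 at an unadjusted p below 0.05 (17.2% of genes) and 2 called by DESeq2 (5.05%). None was called in M1 against M2 either, beside 16.1% of genes, with 2 at an unadjusted p below 0.05 (29.8%) and 1 called by DESeq2 (14.6%). With CaP_rods against M0, 1 was called (Gpnmb), beside 0.409% of 16621 genes, 6 had an unadjusted p below 0.05 (18.0% of genes), and DESeq2 called 2 (3.44%). In SiO2_rods against M0 edgeR called 0 members, beside 0.0602% of genes, 4 had an unadjusted p below 0.05 (9.27%) and DESeq2 called 3, Plin2, Hilpda and Gpnmb (0.682%). The members' median log2 fold change was 0.57 with CaP_rods and 0.42 with SiO2_rods, against 0.06 and -0.02 over all genes, and 6 and 4 of the 8 had libraries that did not overlap M0, as did 17.4% and 18.0% of all genes. In M1 and M2 the medians were 0.30 and 0.17, against -0.01 and 0.07 over all genes. There 4 and 2 of the 8 had libraries that did not overlap M0. No share over all genes is given for these counts, so they are not read as a result about the members. Against M1, 4 members were called with CaP_rods (Lpl and Gpnmb higher, Acsl1 and Cpt1a lower, beside 12.7% of genes) and 2 with SiO2_rods (Gpnmb higher, Acsl1 lower, beside 10.5%). Against M2, 1 was called with CaP_rods (Gpnmb, beside 4.46%) and 2 with SiO2_rods (Gpnmb and Plin2, beside 3.65%). All comparisons with M0 share the same 3 control libraries.

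**Figure D3:**
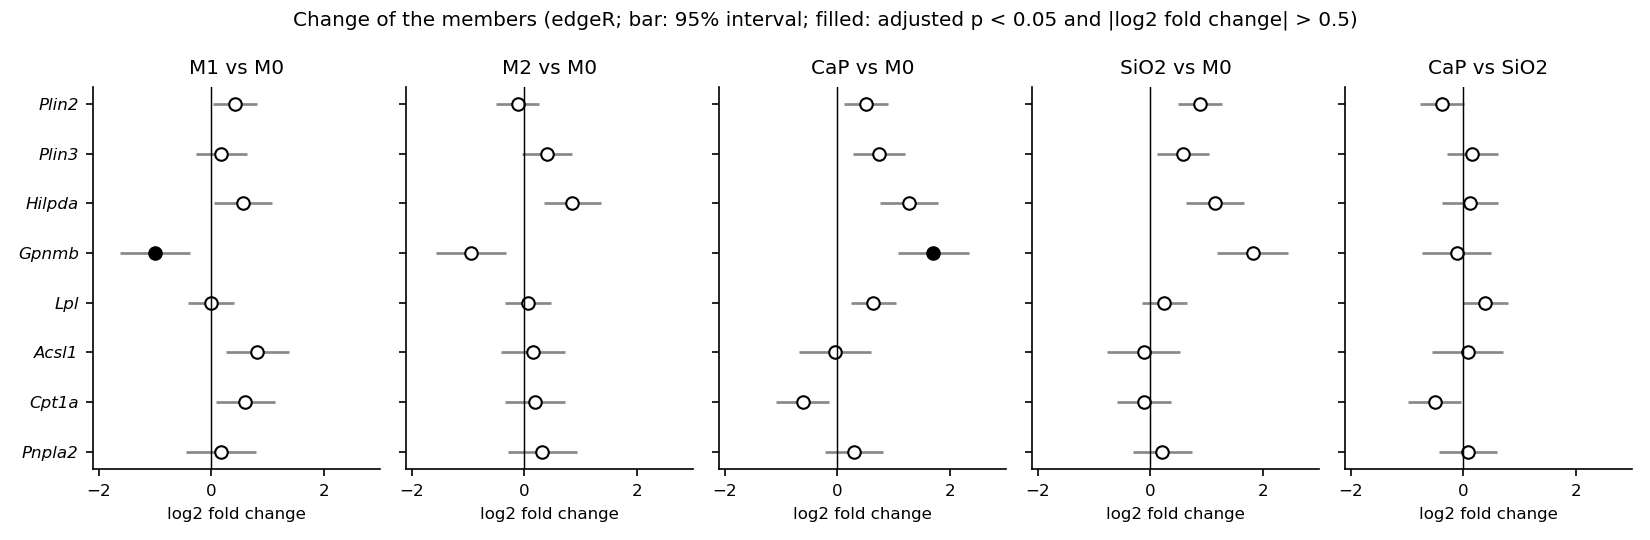
Log2 fold change of the 8 tested members in 5 comparisons, with the 95% interval from edgeR; filled points were called (adjusted p under 0.05, change of over 0.5 either way). Filled points are Gpnmb in M1 vs M0 (-1.01) and in CaP vs M0 (1.71).

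Between the rod types no member was called by edgeR (0.0241% of genes were) or DESeq2 (0.0874%), and 1 member, Cpt1a, had an unadjusted p below 0.05 (1.87%). The log2 difference of CaP_rods from SiO2_rods in Gpnmb was -0.11 with a 95% interval of -0.72 to 0.50, and in Hilpda 0.12 with an interval of -0.38 to 0.62, so differences of that size cannot be told from 0 here. For Plin2 the libraries did not overlap and the difference was -0.38 (-0.77 to 0.01), and for Cpt1a they did not overlap either, at -0.51 (-0.98 to -0.04), while 8.10% of all genes had libraries that did not overlap between the rods. Lpl differed by 0.39 (-0.00486 to 0.79) with overlapping libraries. The adjusted p was 1.00 in edgeR for each of these 5.

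In the order of the 5 group means, few neighbours were set apart by edgeR with all 15 libraries. For Gpnmb the order was SiO2_rods, CaP_rods, M0, M2, M1, and only the step from CaP_rods to M0 passed (adjusted p = 0.0171). Hilpda ran from CaP_rods through SiO2_rods, M2 and M1 to M0, and Plin2 from SiO2_rods through CaP_rods, M1 and M0 to M2. Acsl1 and Cpt1a began with M1 and M2 and ended with the rod groups. No neighbouring pair of these 4 genes, nor of Plin3, Lpl and Pnpla2, passed.

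Within groups, libraries deviated in the same direction for several members at once. The first M1 library was the lowest of its group for 7 of the 8 tested members, the first CaP_rods library for 6 of 8, and the first M2 library was the highest of its group for 7 of 8. Over the 15 libraries, Pearson's r of log2 CPM was 0.90 between Plin3 and Lpl, 0.83 between Hilpda and Plin3, 0.73 between Gpnmb and Lpl and 0.71 between Gpnmb and Plin2. Cpt1a ran opposite to Lpl (-0.79) and Gpnmb (-0.76). These values describe libraries that share 5 treatments and are not independent points.

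The genes whose log2 CPM followed Gpnmb most closely over the 15 libraries, of 11310 compared, were Arhgap25 (r = 0.966), Dcstamp, a membrane protein of cell fusion (0.965), and Padi2, a peptidylarginine deiminase (0.962). Dcstamp had means of 19.5 CPM in M0, 13.1 in M1, 10.95 in M2, 32.0 in CaP_rods and 33.1 in SiO2_rods. For Hilpda they were Arl2, a small GTPase (0.930), Atf3, a stress-induced transcription factor (0.913), and Rsph3a (0.898). Atf3 means ran from 45.3 CPM in M0 to 73.6 CPM in CaP_rods. For Cpt1a the closest were Bend6 (0.931), Stard7, a lipid transfer protein (0.919), and Gm48146 (0.914). The M2 libraries of Gm48146 were spread widely, with a mean of 52.0 CPM and an SD of 42.9 CPM. None of these correlations was recomputed without the 3 libraries that stand apart.

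Beyond the members, 92 further genes of the same pathways were listed, of which 72 were tested in the 15-library model and 73 in the 9-library model. In M1 against M0, 11 were higher (9.70% of all genes were) and 7 lower (4.37%). The fatty acid uptake and binding genes Cd36, Fabp4, Fabp5 and Msr1 rose, 4 of 10 tested in that group. Of these, Fabp4 was low, at 0.151 to 1.85 CPM over the 15 libraries. Dgat1 and Dgat2, which catalyse the last step of triglyceride synthesis, and the desaturase Scd1 also rose. Agpat2, also of triglyceride synthesis, fell, and of the 9 tested genes of that group 4 had a value above 0 and 5 below. Of 18 tested beta-oxidation genes, Acadm, Hadh, Acaa2 and Acot2 fell and Echs1 rose. The remaining calls were Bscl2, Hif1a and Ctsd, which were higher, and Angptl4 and Trem2, which were lower. Msr1, a scavenger receptor, went from 22.1, 26.3 and 32.9 CPM in M0 to 82.2, 79.2 and 70.8 CPM in M1, a log2 fold change of 1.52 ± 0.18 (edgeR adjusted p = 6.68e-05). Dgat2 went from 4.90, 10.8 and 8.92 CPM to 32.1, 60.0 and 68.1 CPM (2.74 ± 0.42, edgeR adjusted p = 0.000660), and Dgat1 rose by 1.39 ± 0.31 (0.00892). Acot2, a mitochondrial acyl-CoA thioesterase, fell from 149.9, 75.3 and 74.5 CPM to 39.9, 35.3 and 33.9 CPM (-1.46 ± 0.27, edgeR adjusted p = 0.00248).

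In M2 against M0, 1 listed gene was higher (Fabp5, beside 2.00% of all genes) and 4 lower (2.13% of all genes). Lower were Spp1 (osteopontin), the tetraspanin Cd9 and the protease Ctsl, all from the list of lipid-laden macrophage genes, and Lpin2 of triglyceride synthesis. Spp1 fell from 4358, 4986 and 5386 CPM to 1140.1, 2107 and 953 CPM, a log2 fold change of -1.81 ± 0.23 (edgeR adjusted p = 0.000470), whereas Ctsl, Cd9 and Lpin2 changed by -0.76, -0.69 and -0.69 (edgeR adjusted p = 0.0366, 0.0426 and 0.0495). None of the 5 calls was left with only the 6 compared libraries in the model. Whichever single library was left out, Spp1 kept its call. That of Fabp5 was lost without the first or the third M0 or the first M2 library, that of Cd9 without the second or the third M0 or the first or the third M2 library, that of Ctsl without any of these but the first M0 library and without the second M2 library, and that of Lpin2 without any library but the second M2 one. Without the 3 libraries that stand apart only Spp1 and Cd9 were called. Of 18 beta-oxidation genes, 16 had a value above 0 in M2 and none was called. Their median log2 fold change was 0.38, against 0.07 over all genes, and a shift of these genes as a set was not tested. M1 against M2 gave 12 higher (10.6% of all genes) and 10 lower (5.46%), among them Spp1 (2.44 ± 0.24), Dgat2 (1.73 ± 0.40), Msr1 (1.65 ± 0.18) and the lysosomal protease Ctsd (1.51 ± 0.35), with edgeR adjusted p of 7.47e-06, 0.00895, 2.31e-05 and 0.00956. With only those 6 libraries in the model, 14 of the 72 were called in place of 22.

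With CaP_rods, edgeR called 2 listed genes higher than in M0 (0.289% of all genes were) and none lower, and both, Spp1 and Lgals3, belong to the lipid-laden macrophage genes. DESeq2 called 5 (3.44% of all genes), namely these 2 with Cd9 and Ctsd, and Msr1, which was lower. An unadjusted p below 0.05 in edgeR was found for 20 of the 73 tested, beside 18.0% of all genes. Spp1 was at 9490, 9695 and 9002 CPM, above all other libraries of the study, and rose by 0.94 ± 0.13 on the log2 scale from M0 (edgeR adjusted p = 0.0174). Lgals3 (galectin-3), which gathers at damaged lysosomes, went from 564, 1037 and 819 CPM in M0 to 1687, 1828 and 2185 CPM (1.24 ± 0.21, edgeR adjusted p = 0.0475). All 8 genes of that list had values above 0 in CaP_rods and 7 of 8 in SiO2_rods. Their medians were 0.50 and 0.35 on the log2 scale, against 0.06 and -0.02 over all genes, and a shift of the list was not tested. In SiO2_rods against M0 none of the 73 tested was called by edgeR (0.0602% of all genes were) and 2 were by DESeq2 (0.682%). An unadjusted p below 0.05 was found for 10 of the 73, beside 9.27% of all genes. Lgals3 stood at 1775, 1771 and 1705 CPM there (1.118 ± 0.21, edgeR adjusted p = 0.126) and Ctsd at 397, 466 and 369 CPM against 117, 216 and 201 CPM in M0 (1.21 ± 0.30, edgeR adjusted p = 0.293). CaP_rods against SiO2_rods gave no call among the listed genes by edgeR (0.0241% of all genes) or DESeq2 (0.0874%). Of the 73, 1 had an unadjusted p below 0.05, beside 1.87% of all genes. Libraries did not overlap for 3 of the 73, beside 8.10% of all genes, and Spp1 was among these 3 (0.58 ± 0.13, edgeR adjusted p = 0.864). The call of Spp1 in CaP_rods against M0 was lost with all 15 libraries in the model (adjusted p = 0.0875), and that of Lgals3 with the older form of the fit. Both CaP_rods calls were lost without the second or the third CaP_rods library, without the first or the third M0 library, without the 3 libraries that stand apart, and with a replicate block. The medians over all tested listed genes were 0.20 in M1, 0.14 in M2, 0.13 in CaP_rods and 0.12 in SiO2_rods.

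**Figure D4:**
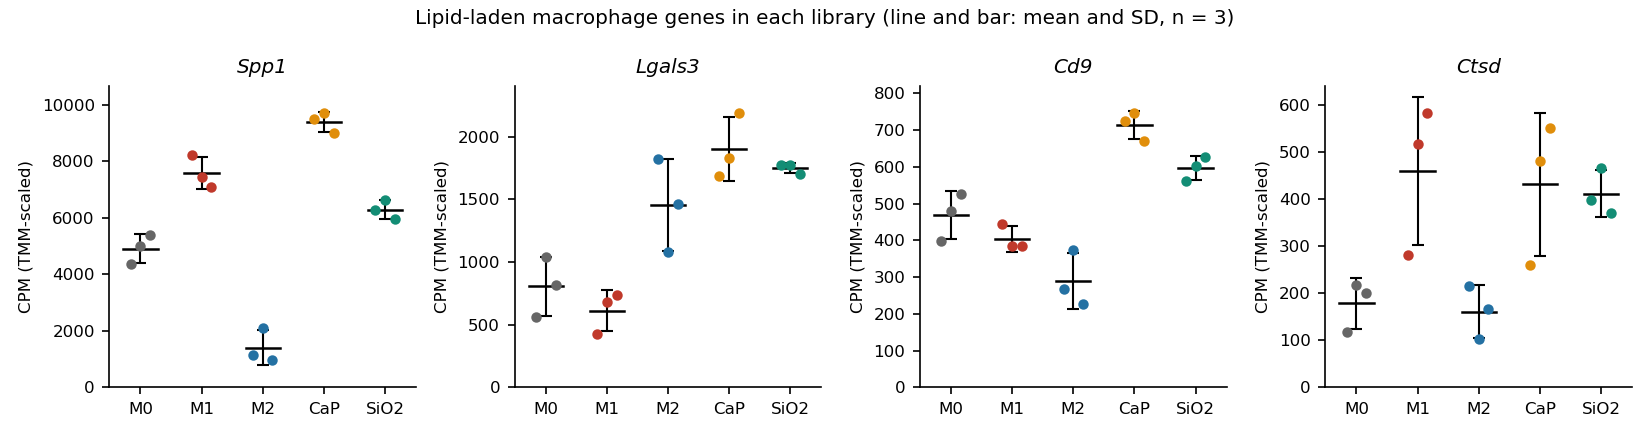
Levels of Spp1, Lgals3, Cd9 and Ctsd in TMM-scaled CPM (linear axis from 0) in the 15 libraries of the 5 groups; points are libraries, lines and bars the mean and SD (n = 3). The CaP libraries lie highest for Spp1 (9002 to 9695 CPM) and both rod groups lie above M0 for all 4 genes.

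**Figure D5:**
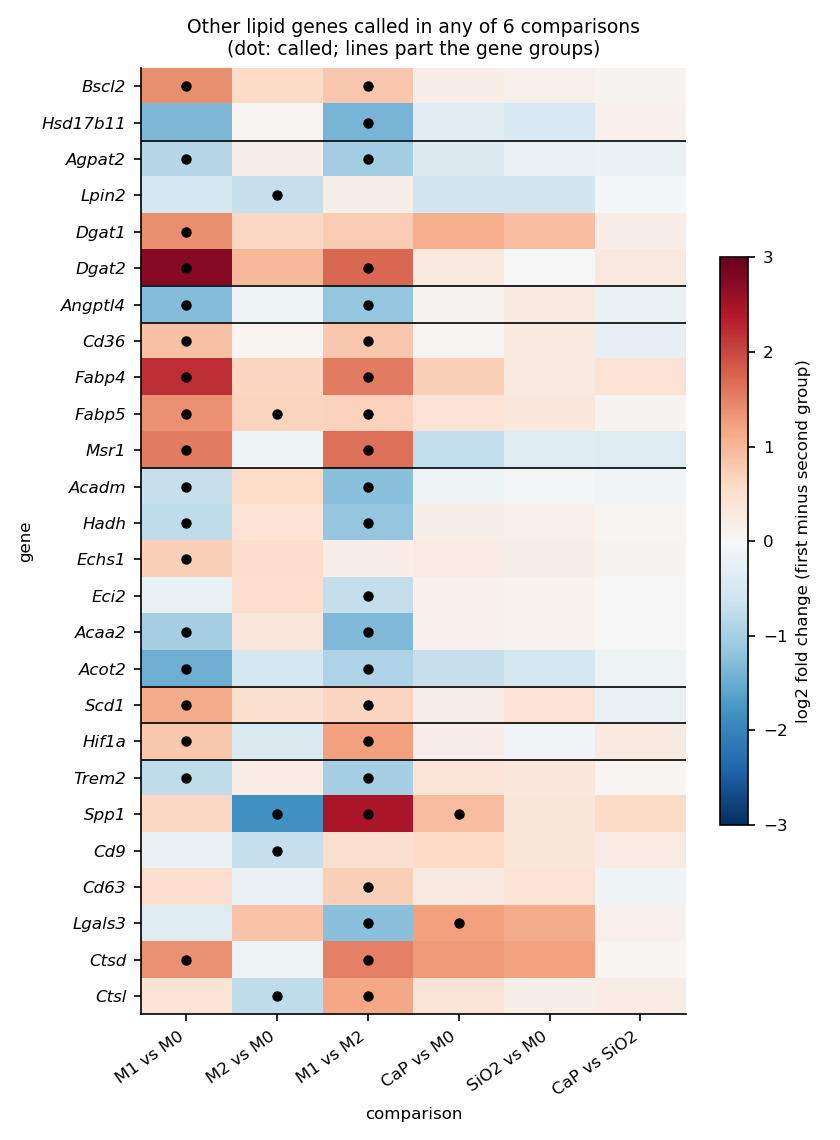
Log2 fold change (colour, first minus second group) of the 26 listed genes called in any of 6 comparisons, in the order of their gene groups; a dot marks a call. Most dots stand in the columns with M1, 2 in CaP vs M0 and none in SiO2 vs M0 or CaP vs SiO2.

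The 19 listed genes outside the filter in either model included the perilipins Plin1, Plin4 and Plin5, the Cide genes, Ppara, Ppargc1a, Pdk4 and Nr1h3, none of which exceeded 0.820 CPM in any library. Cpt1b, the muscle form of the carnitine transferase, was at 0 counts throughout.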

How the data were processed

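Bulk RNA-seq of MH-S cells was analysed in 15 libraries, 3 in each of 5 groups named from the labels. The authors prepared Smart-seq2 libraries and ran the nf-core/rnaseq pipeline (STAR and Salmon, Ensembl annotation, genome build GRCm39 per the labels), and deposited whole-number counts per Ensembl gene, which may be rounded Salmon estimates. The protocol does not mark strand, so reads of overlapping antisense genes cannot be told apart. Library totals of 8459643 to 68750050 counts set the precision, and limits from counts of 0 cover counting error only. Symbols and transcript lengths came from GENCODE M21 (51487 of 78317 identifiers had a symbol) and promoters from RefSeq (GRCm38.p6, 9 of 10 members), a different build, so no coordinate was carried over to the counts.

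The counts were tested with edgeR 4.0.16 (filterByExpr, TMM, glmQLFit without the legacy option, glmQLFTest, Benjamini-Hochberg over all genes tested) in R 4.3.3. A gene was called where the adjusted p was under 0.05 and the log2 fold change exceeded 0.5 in size. M1 and M2 comparisons used all 15 libraries and comparisons among M0 and the rods those 9, as in the study; pairs of a rod with M1 or M2, and the order of groups, used all 15. Intervals are 95% intervals of the fit, whose steps were tested on simulated data. Alternatives were DESeq2 1.42.0, its size factors, a filter of 10 counts in every library, no filter, no fold threshold, other sets of libraries, a replicate block and leaving out each library, and, chosen after the data were seen, the legacy fit. An exact permutation test of 3 against 3 cannot go below 0.1, so none is given. Replicates of a group differed by more than counting noise. Deviations of same-numbered libraries from their group means correlated at 0.292, 0.275 and 0.206 between M1 and M0. In each of the other comparisons some of these correlations were negative. No label pairs the libraries, and the main test did not pair them in any comparison.

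Named were all 10 members; up to 4 listed pathway genes per comparison that were called, did not overlap and reached 5 CPM, by size of change; the 3 genes most correlated with each of the 3 members of widest range; and Il1b and Arg1. Other called genes are named only as part of a count, and Ctsd, Cd9, Lgals3 and Spp1 are also given where they were not called. The members and lists were chosen with earlier results of these data known.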

Additional observations from a re-analysis of the deposited data

How the results depend on the processing

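Of 798 recomputed member values, 712 kept their direction and side of the threshold, 35 lost a call, 27 gained one and 24 changed sign, the last all among values that were not called and lay between -0.14 and 0.18 on the log2 scale. Of 180 recomputed counts of calls, 128 stayed within 1.5 times. These include counts of 0 that stayed at 0, such as all 15 for the members in CaP_rods vs SiO2_rods, so 128 is not a measure of how stable the calls were. The cause of the moves was not tested. Leaving out libraries also leaves fewer degrees of freedom, and the part of this in the moves was not tested either.

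Members called in CaP_rods vs M0 (1) went to 2 with all 15 libraries, at least 10 counts in every library, DESeq2 or no filter, to 0 with the legacy fit or without the 3 libraries low on the second component, and ran from 0 to 3 when single libraries were left out. In M1 vs M0 (1) they went to 2 with DESeq2 and to 2 without the 3 libraries (Acsl1 and Cpt1a, with Gpnmb lost), and from 0 to 1 when single libraries were left out. In M1 vs M2 (0) they went to 1 with at least 10 counts or DESeq2 (Plin2), to 1 without the 3 libraries (Cpt1a), and from 0 to 1 without single libraries. In M2 vs M0 (0) they went to 2 with DESeq2 or no filter, and from 0 to 1 without single libraries. In SiO2_rods vs M0 (0) they went to 1 with all 15 libraries or no filter and to 3 with DESeq2.

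Listed pathway genes called in CaP_rods vs M0 (2) went to 1 with all 15 libraries or the legacy fit, 5 with DESeq2, 0 without the 3 libraries, and from 0 to 5 without single libraries. In M2 vs M0 (5) they went to 9 with DESeq2, 0 with only the 6 compared libraries, 2 without the 3 libraries, and from 1 to 9 without single libraries. They went from 22 to 14 in M1 vs M2 with only the 6 compared libraries, from 0 to 2 (DESeq2) or 1 (no filter) in SiO2_rods vs M0, and from 0 to 1 in CaP_rods vs SiO2_rods with no filter. Apart from DESeq2, the share of all genes called under each alternative setting is not given. The moves in the counts of members and of listed genes are therefore not read as results about these genes.

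With a replicate block, the listed genes called went from 2 to 0 in CaP_rods vs M0 and from 5 to 3 in M2 vs M0, the calls of Lpl (adjusted p = 0.0587) and Acsl1 (0.0683) in CaP_rods and of Acsl1 in SiO2_rods (0.0611) against M1 were lost, and no other call of a member changed. In every comparison the libraries of a block share only a number, since no label pairs them.

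Signs changed as follows when single libraries were left out, as ranges of the log2 fold change. Acsl1 ran from -0.30 to 0.18 in CaP_rods vs M0 (0.13 without the 3 libraries), -0.18 to 0.30 in CaP_rods vs SiO2_rods and -0.24 to 0.060 in SiO2_rods vs M0 (0.033 without the 3 libraries). Cpt1a ran from -0.094 to 0.36 in M2 vs M0 (-0.041 without the 3 libraries). Gpnmb ran from -0.33 to 0.14 in CaP_rods vs SiO2_rods and from -0.33 to 0.11 in M1 vs M2. Lpl ran from -0.13 to 0.16 in M1 vs M0, -0.28 to 0.064 in M1 vs M2 and -0.090 to 0.23 in M2 vs M0. Plin2 ran from -0.30 to 0.017 in M2 vs M0. Pnpla2 ran from -0.087 to 0.30 in CaP_rods vs SiO2_rods and -0.47 to 0.090 in M1 vs M2.

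Depth limits Mgll and G0s2, whose changes were not detectable at these totals, and Acsl1, Cpt1a and Pnpla2 rest on as few as 52, 59 and 103 counts in a library.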
